A study of Mus musculus with 16 samples.

Results

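Deubiquitinases are the enzymes that remove ubiquitin, or a ubiquitin-like protein such as ISG15, from other proteins. The genes described here carry symbols of the Usp, Otud, Otub and Uchl series, together with Bap1, Cyld, Tnfaip3, Stambp and Stambpl1. Of the 16475 genes measured, 61 met this rule by symbol alone. Usp9y also met it and was left out. One of the 61, Usp6nl, shares the Usp symbol but encodes a GTPase-activating protein for Rab proteins and not a deubiquitinase. Some members, such as Usp39, belong to the Usp family by sequence but are held to be inactive as proteases.

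The mRNA came from CD4+ T cells of female C57BL/6 mice that carry green fluorescent protein (GFP) knocked into the Foxp3 gene, and all 8 groups share this genotype. GFP+ cells (TFoxp3+, the Foxp3-expressing regulatory T cells) and GFP- cells (TFoxp3-, all other CD4+ T cells) were sorted from lymph nodes and spleens to over 97% purity. They were lysed directly ex vivo or after 36 h in vitro with plate-bound anti-CD3 and anti-CD28 antibodies at 5 µg/ml and human interleukin 2 at 100 U/ml. From each population both cytosolic mRNA and polysome-associated mRNA (mRNA bound by 3 or more ribosomes) were hybridised to Affymetrix arrays, which gave 8 groups of subset, state and RNA fraction. Each group held 2 arrays, numbered from 1 to 16 over the series. Ex vivo samples were pools of separate experiments, and GFP- cells are a mixture of naive and previously activated cells. Cycloheximide at 100 µg/ml was in all buffers and media of ex vivo cells, but activated cells received it only when culture ended. Exposure to it therefore differed with state, and the 2 cannot be told apart. All values below are log2 intensities, and all differences are log2 differences between group means with their standard errors (SE).

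Ubiquitin chains mark proteins for the proteasome or assemble signalling complexes, and deubiquitinases trim or erase them. In T cells they are best known for restraining the NF-κB pathway downstream of the antigen receptor: the products of Tnfaip3 (A20) and Cyld dismantle ubiquitin chains on its signalling intermediates. Usp7, Usp21 and Usp22 are among the deubiquitinases reported to act on Foxp3 protein or its gene. Others sit on the proteasome (Usp14, Uchl5), on chromatin (Bap1, Usp16, Usp22) or on endosomes (Usp8, Stambp).

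Array medians lay between 4.845 and 5.065, so a value near 5 is that of a middling probe set. Replicate arrays correlated over all genes at 0.98 to 0.992 ex vivo but only at 0.887 to 0.945 after activation, and 13 to 20 of the 61 genes differed more than 2-fold between the 2 replicate arrays of an activated group, against 0 to 6 ex vivo. The 3′ minus 5′ actin signal was 4.16 to 4.64 in TFoxp3+ ex vivo, 0.82 to 1.38 in TFoxp3- ex vivo and -0.59 to -0.2 after activation, and so moved with subset and state. Array file names fell into 3 series, 1 for all ex vivo arrays, 1 for activated TFoxp3- and 1 for activated TFoxp3+, so after activation subset and array series cannot be told apart, nor can activation and array series. Group means of Foxp3 were 10.09 to 10.53 in TFoxp3+ cells and 3.75 to 6.05 in TFoxp3- cells, and all 6 measured T cell markers were above the array medians in every group. 8 of the 61 genes were below every array's median on all 16 arrays: Uchl1, Uchl4, Usp12, Usp26, Usp29, Usp33, Usp43 and Usp50.

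A gene was called when its Benjamini-Hochberg adjusted p over all 16475 genes, from limma fitted to all 16 arrays, was under 0.05 for activation and fraction comparisons and under 0.15 for subset comparisons. Of the 61 genes, 46 were called in at least 1 of 16 comparisons. The same count was not made for all 16475 genes, so it does not set these genes apart. The 15 that were called in none were Stambpl1, Uchl4, Usp1, Usp14, Usp2, Usp20, Usp22, Usp3, Usp31, Usp36, Usp45, Usp49, Usp5, Usp6nl and Usp7. With 2 arrays a group, a gene that was not called may still differ.

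**Figure D1:**
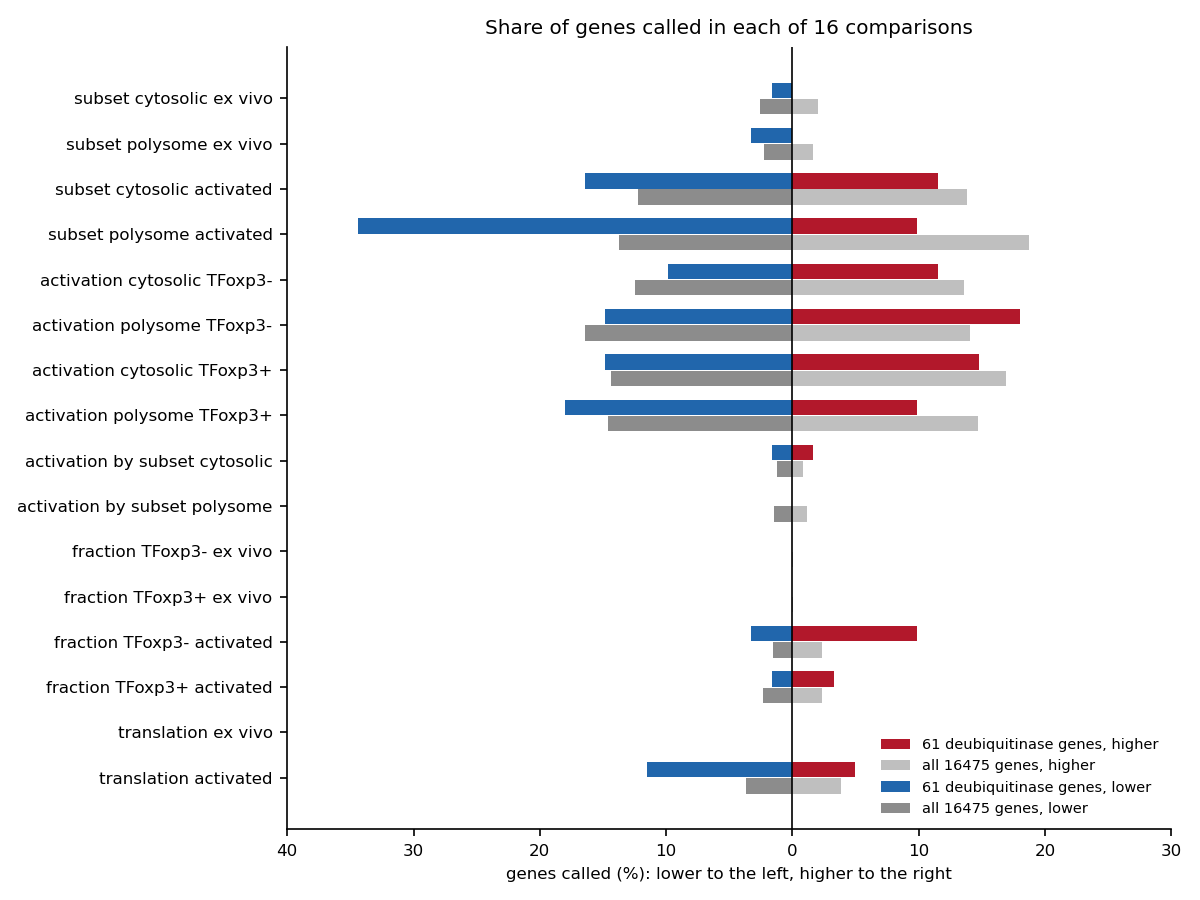
Percentage of genes called lower (left) and higher (right) in each of the 16 comparisons, with coloured bars for the 61 deubiquitinase genes and grey bars for all 16475 genes. In polysome-associated mRNA after activation, 34.4% of the deubiquitinase genes were lower in TFoxp3+ cells against 13.7% of all genes, while in the activation comparisons the members' shares were nearer to those of all genes.

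**Figure D2:**
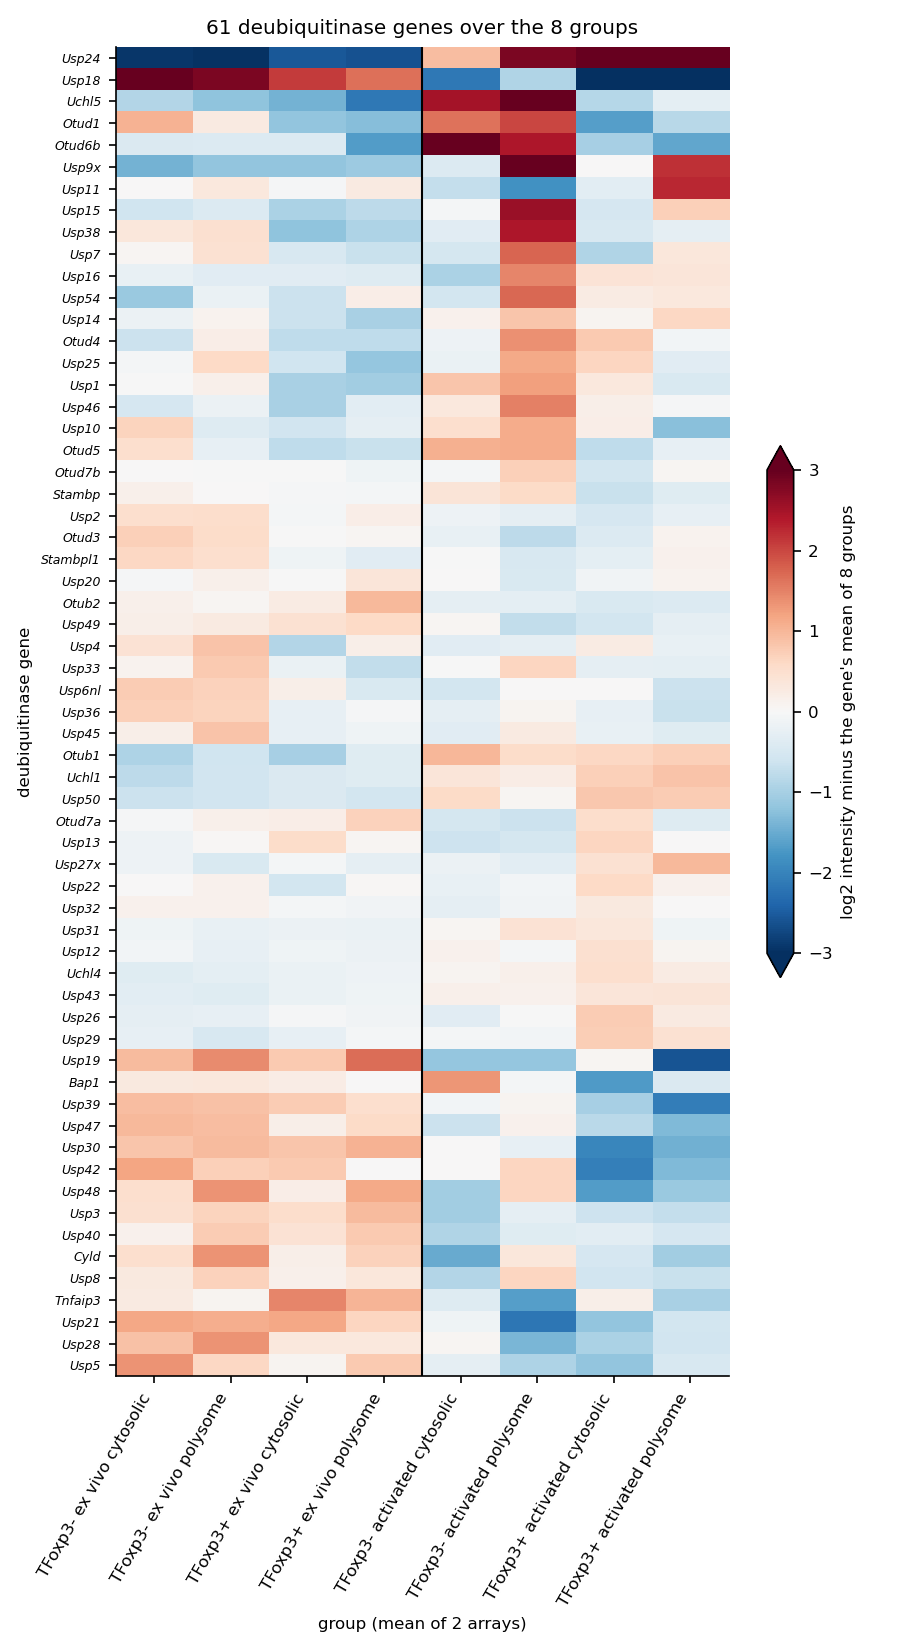
Group means of the 61 genes in the 8 groups (columns; ex vivo left of the line, activated right), coloured by log2 intensity minus the gene's mean over the groups and ordered by average-linkage clustering. Usp24 and Usp18 showed the widest ranges and in opposite directions, and a block of genes that includes Uchl5, Otud6b, Usp15 and Usp38 was highest in polysome-associated or cytosolic mRNA of activated TFoxp3- cells.

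Activation changed deubiquitinase genes in both directions. In cytosolic mRNA of TFoxp3- cells 7 rose and 6 fell, against 13.6% of all genes that rose and 12.5% that fell; the members' shares were 11.5% and 9.84%. In their polysome-associated mRNA 11 rose (18% against 14.1% of all genes) and 9 fell (14.8% against 16.4%). In TFoxp3+ cells 9 rose and 9 fell in cytosolic mRNA (14.8% each, against 16.9% and 14.4% of all genes), and 6 rose and 11 fell in polysome-associated mRNA (9.84% and 18%, against 14.7% and 14.6%). Some of these counts rest on single arrays. Without array 7 only 5 genes were called in TFoxp3- cytosolic mRNA (6 without array 3, 8 without array 11), without array 4 only 9 in their polysome-associated mRNA (12 without array 8), and without array 5 only 8 in TFoxp3+ cytosolic mRNA (9 without array 1). Fitted to only the arrays compared, 3 rose and 8 fell in cytosolic and 1 rose and 5 fell in polysome-associated mRNA of TFoxp3+ cells, and with array weights 17 rose and 14 fell in polysome-associated mRNA of TFoxp3- cells. With each array centred on its median, 6 rose and 11 fell in cytosolic mRNA of TFoxp3+ cells. The shares of all genes called without these arrays or under these settings are not given here. These counts therefore do not show whether the members moved apart from all genes. Only Usp18 fell, and only Usp24 and Otub1 rose, in all 4 of these comparisons. In bulk samples such as these, fewer cells of a type and less RNA per cell cannot be told apart.

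Usp18, which removes ISG15 and damps interferon receptor signalling, had the largest fall with activation. Ex vivo it was at 9.996 and 10.28 in cytosolic and 9.55 and 9.84 in polysome-associated mRNA of TFoxp3- cells, and at 8.76 and 9.17, then 8.47 and 8.56, in TFoxp3+ cells. After activation it was at 4.30 and 5.12 and at 5.41 and 6.51 in TFoxp3- cells, and at 3.09 and 4.12 and at 2.61 and 4.06 in TFoxp3+ cells. Every ex vivo array was above every activated array. All values in activated TFoxp3+ cells lay below every array median, so the sizes of the falls there are less certain than the direction. The falls were -5.43 and -3.74 in cytosolic and polysome-associated mRNA of TFoxp3- cells and -5.36 and -5.18 in those of TFoxp3+ cells (SE 0.52 each, largest adjusted p 0.000319), and each of these calls was kept under all 22 alternative settings, including those that left out 1 array.

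Usp24, a large enzyme linked to p53 and MDM2 turnover, moved the other way. Ex vivo its 8 arrays lay between 2.74 and 3.58, below every array median. After activation it reached 6.29 and 7.40 in cytosolic and 8.53 and 8.93 in polysome-associated mRNA of TFoxp3- cells, and 9.87 and 10.50, then 7.13 and 10.77, in TFoxp3+ cells. No ex vivo array overlapped an activated one, although the replicate arrays of TFoxp3+ polysome-associated mRNA were far apart. The rises were 3.85 (SE 0.86, adjusted p 0.0078), 5.78 (0.000488), 6.82 (0.000274) and 5.64 (0.000843) in the same order, and the first was lost without array 3 or 11. Since the ex vivo values sit at the low end of the arrays, these sizes are less certain than the direction.

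**Figure D3:**
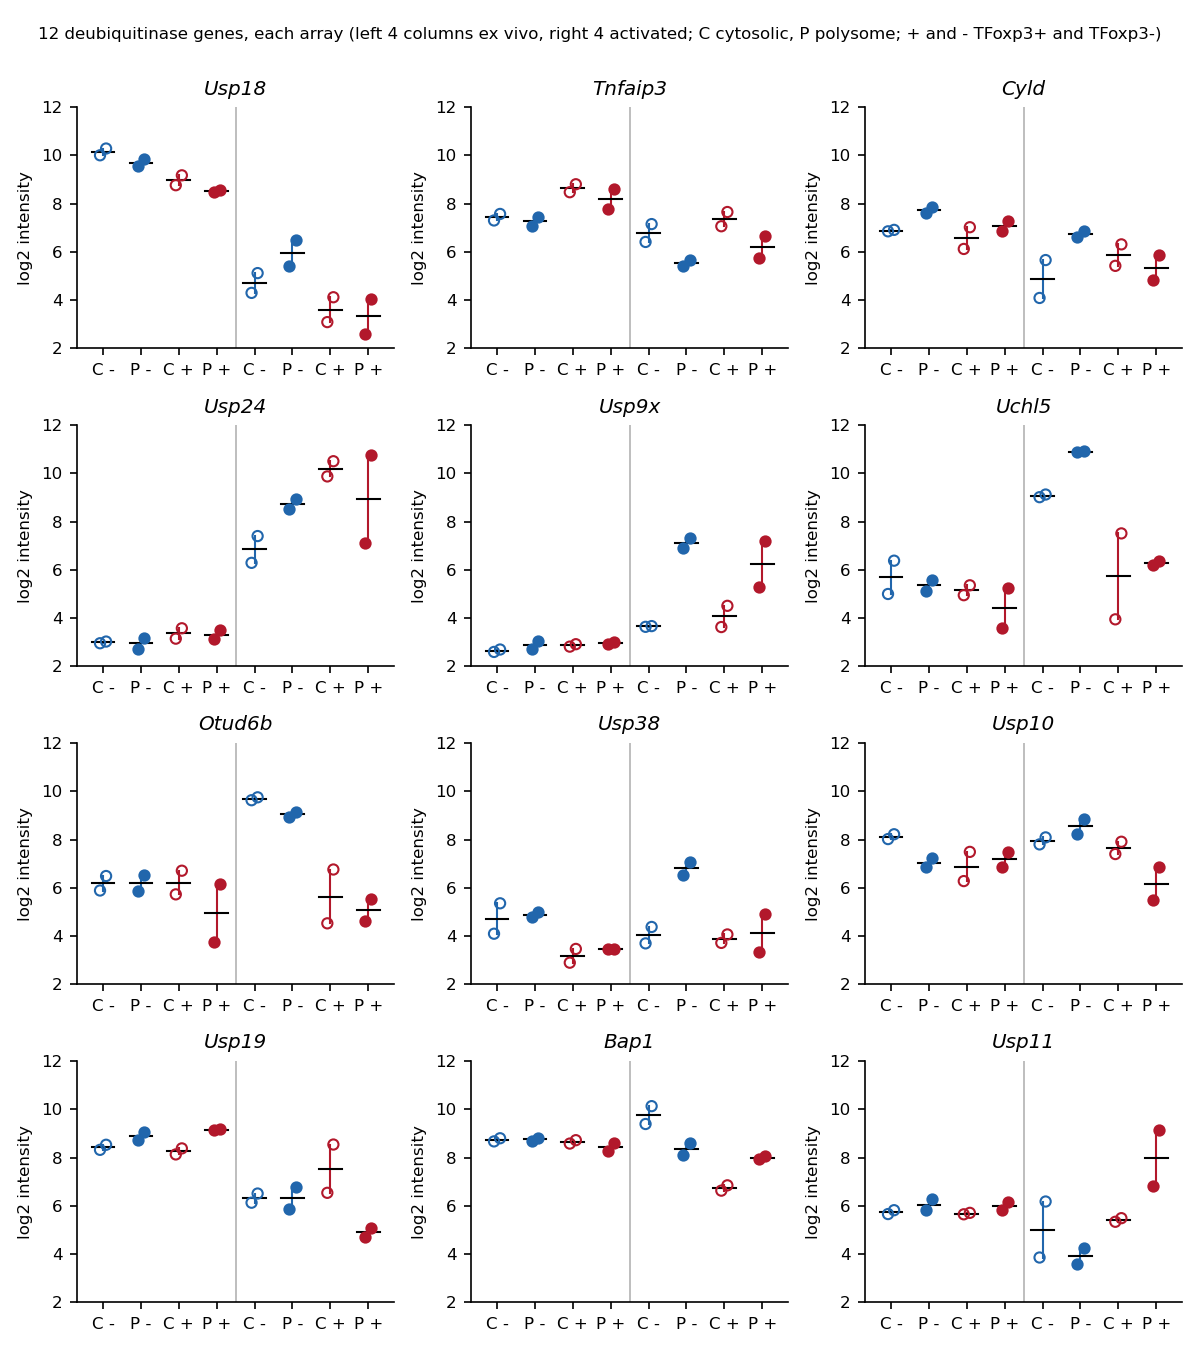
Log2 intensity of 12 deubiquitinase genes on each array (circles; open cytosolic, filled polysome-associated; blue TFoxp3-, red TFoxp3+), with group means as black bars and the 2 replicate arrays joined. Usp18 fell and Usp24 rose in every pair of ex vivo and activated groups, whereas Uchl5 and Otud6b were highest in activated TFoxp3- cells.

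Of the 10 genes of the NF-κB and lymphocyte signalling group, Tnfaip3 and Cyld are the best known brakes. The bases upstream of both are shown because each holds the letters GGAANNNCC, a core of many NF-κB binding sites, which are in capitals on either strand below; both windows are from RefSeq on GRCm38.p6, end at the base before the annotated start and read 5′ to 3′ on the gene's strand. The Cyld window is chr8:88696868-88697027 on the plus strand, with 1 match that begins 155 bases before the start, and the Tnfaip3 window is chr10:19015411-19015570 on the minus strand, with 2 matches that begin 24 and 12 bases before it.
Cyld: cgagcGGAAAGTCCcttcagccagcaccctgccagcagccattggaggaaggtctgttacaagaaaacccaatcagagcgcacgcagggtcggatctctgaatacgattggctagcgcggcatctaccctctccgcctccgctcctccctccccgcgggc
Tnfaip3: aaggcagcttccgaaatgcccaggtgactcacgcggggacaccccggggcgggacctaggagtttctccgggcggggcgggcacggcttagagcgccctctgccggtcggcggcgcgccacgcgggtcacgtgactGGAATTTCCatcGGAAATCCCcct
These letters were found within 250 bases upstream of 17.6% of 27025 genes, and at least 2 times upstream of 1.67%. Of the 49 deubiquitinase genes with an entry, 10 held a match and Tnfaip3 alone held 2. A match is a run of letters, not a measured site.

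Tnfaip3 was at 7.30 and 7.57 in cytosolic and 7.08 and 7.45 in polysome-associated mRNA of ex vivo TFoxp3- cells and higher, at 8.47 and 8.80 and at 7.79 and 8.61, in TFoxp3+ cells. After activation it was at 6.41 and 7.15 and at 5.41 and 5.66 in TFoxp3- cells, and at 7.06 and 7.65 and at 5.73 and 6.67 in TFoxp3+ cells. In every subset and fraction the activated arrays were below the ex vivo ones. It fell in polysome-associated mRNA of both subsets, by 1.73 in TFoxp3- (SE 0.39, adjusted p 0.00664) and by 2.00 in TFoxp3+ cells (SE 0.39, adjusted p 0.00366), and in cytosolic mRNA of TFoxp3+ cells by 1.28 (adjusted p 0.0301). The first was lost without array 4 and the last without array 1, 5 or 15. The higher ex vivo level in TFoxp3+ cells was not called.

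Cyld went from 6.85 and 6.91 in cytosolic mRNA of TFoxp3- cells ex vivo to 4.09 and 5.66 after activation, and from 6.86 and 7.27 in polysome-associated mRNA of TFoxp3+ cells to 4.85 and 5.85. Neither pair of groups overlapped. These falls, by 2.00 (SE 0.52, adjusted p 0.0166) and by 1.72 (SE 0.52, adjusted p 0.0302), were lost without array 3, 7 or 9 and without array 2, 6 or 14, respectively. In polysome-associated mRNA of TFoxp3- cells Cyld was at 6.60 and 6.87 after activation against 7.61 and 7.86 before, without overlap, and this difference was not called (adjusted p 0.179).

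Otub1, which binds ubiquitin-conjugating enzymes and cleaves K48-linked chains, rose in all 4 activation comparisons. It was at 7.65 to 8.52 on the 8 ex vivo arrays and at 9.20 to 10.05 on the 8 activated arrays. The rises were 1.91 and 1.16 in cytosolic and polysome-associated mRNA of TFoxp3- cells and 1.62 and 1.07 in those of TFoxp3+ cells (SE 0.26 each, largest adjusted p 0.0114). The cytosolic calls held without any single array, and the polysome calls were lost without array 4 in TFoxp3- and without array 2 or 14 in TFoxp3+ cells.

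Usp9x and Usp15 rose in polysome-associated mRNA. Usp9x, a regulator of protein stability and trafficking that also acts in antigen receptor signalling, was between 2.60 and 3.04 on all 8 ex vivo arrays. After activation it was at 3.64 and 3.67 in cytosolic but 6.90 and 7.34 in polysome-associated mRNA of TFoxp3- cells, and at 3.63 and 4.51 against 5.28 and 7.21 in TFoxp3+ cells. Its polysome-associated mRNA rose by 4.24 (SE 0.50, adjusted p 9.93e-05) and by 3.27 (SE 0.50, adjusted p 0.000827), and both calls held without any single array. As for Usp24, the ex vivo values are at the low end of the arrays, and the sizes are less certain than the direction. Usp15 went from 3.79 and 4.07 to 6.77 and 7.11 in polysome-associated mRNA of TFoxp3- cells, a rise of 3.01 (SE 0.52, adjusted p 0.0012) that held under the 21 settings that tested it. In TFoxp3+ cells its rise of 1.5 (adjusted p 0.0493) was lost without array 1, 3 to 8, 10 or 12 to 16. The other members of the group changed less. Otud7b, which trims K11- and K63-linked chains, rose by 0.71 in TFoxp3- polysome-associated mRNA, Otub2 fell by 1.40 in TFoxp3+ polysome-associated mRNA, and Usp4 fell by 1.14 in polysome-associated mRNA of TFoxp3- cells but rose by 1.14 in cytosolic mRNA of TFoxp3+ cells. The Otud7b call was lost without array 4, 8 or 12, the Otub2 call without array 2, and the Usp4 calls without array 8 or 12 and without array 1, 5 or 15. Usp25 was called in no activation comparison.

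Uchl5, an enzyme of the proteasome regulatory particle and of the INO80 chromatin complex, and Otud6b, linked to translation initiation and proteasome assembly, rose in TFoxp3- cells. Uchl5 was at 5.00 and 6.38 in cytosolic and 5.14 and 5.59 in polysome-associated mRNA of these cells ex vivo, and at 9.01 and 9.12 and at 10.87 and 10.94 after activation. Otud6b was at 5.89 and 6.49 and at 5.89 and 6.53 ex vivo, and at 9.63 and 9.75 and at 8.94 and 9.15 after activation. Activated arrays were above ex vivo arrays throughout. The rises of Uchl5 were 3.38 (SE 0.92, adjusted p 0.0199) and 5.54 (SE 0.92, adjusted p 0.000947), the second of which held under all 22 settings and the first of which was lost without array 7, 9 or 11. Those of Otud6b were 3.50 (SE 0.80, adjusted p 0.00865; lost without array 7) and 2.83 (SE 0.80, adjusted p 0.0201; lost without array 4, 8, 10 or 12). In TFoxp3+ cells neither was called, and the replicate arrays were wide apart: Uchl5 was at 3.95 and 7.51 in activated cytosolic mRNA and Otud6b at 4.53 and 6.76. Usp14, the other deubiquitinase of the proteasome, was between 3.78 and 6.47 on all 16 arrays and was never called.

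Usp19, a membrane-anchored enzyme of the endoplasmic reticulum, fell strongly. In polysome-associated mRNA it went from 8.74 and 9.04 to 5.85 and 6.80 in TFoxp3- cells and from 9.15 and 9.18 to 4.71 and 5.09 in TFoxp3+ cells, with no overlap. These falls were -2.57 (SE 0.52, adjusted p 0.00348) and -4.26 (SE 0.52, adjusted p 0.000229), and both held under all 22 settings. In cytosolic mRNA it fell in TFoxp3- cells, by 2.11 (adjusted p 0.0131), lost without array 3, 7 or 9, and was not called in TFoxp3+ cells, where the activated arrays read 6.54 and 8.54.

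Several enzymes of DNA repair, splicing and mitochondria also fell. Usp48, a nuclear enzyme reported to act on histone H2A and on the NF-κB subunit RelA, went from 6.84 and 6.93 to 4.94 and 5.74 in cytosolic mRNA of TFoxp3- cells, from 6.34 and 6.85 to 4.53 and 4.88 in that of TFoxp3+ cells, and from 7.34 and 7.73 to 5.20 and 5.32 in their polysome-associated mRNA. The falls of -1.54, -1.89 and -2.27 (SE 0.29 each, largest adjusted p 0.00281) held under all 22 settings. In polysome-associated mRNA of TFoxp3- cells Usp48 was at 7.72 and 7.75 before and 6.93 and 7.15 after, and was not called. Usp39, a subunit of the spliceosome, fell in TFoxp3+ cells from 9.17 and 9.38 to 6.44 and 6.98 in polysome-associated mRNA (-2.57, SE 0.52, adjusted p 0.00423), under all settings. Its fall in their cytosolic mRNA (-1.75, adjusted p 0.0263) was lost without array 1, 5 or 15. Usp30, which opposes removal of damaged mitochondria, fell in TFoxp3+ cells from 7.45 and 7.64 to 4.16 and 5.41 in cytosolic mRNA (-2.76, SE 0.58, adjusted p 0.00506) and by 2.49 in polysome-associated mRNA (adjusted p 0.00921, lost without array 2).

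In polysome-associated mRNA of TFoxp3- cells, Usp21 and Usp28 fell and 4 further genes rose. Usp21, one of the enzymes linked to Foxp3 stability, went from 8.54 and 8.66 to 4.73 and 5.94 (-3.27, SE 0.68, adjusted p 0.00413). Usp28, which stabilises MYC and DNA damage checkpoint proteins, went from 7.05 and 7.19 to 3.84 and 4.96 (-2.72, SE 0.34, adjusted p 0.000142). Both calls held under all 22 settings. In cytosolic mRNA of TFoxp3+ cells Usp21 fell by 2.35 (lost without array 1, 5 or 13) and Usp28 by 1.29 (lost without array 1, 5 or 15). The genes that rose were Usp38 and Usp54 (1.92 each), Usp16, an H2A enzyme of mitosis (1.79), and Usp10, linked to p53 and stress granules (1.51). Their calls rested on single arrays: each was lost without array 4, and also without array 8 or 10 for Usp38 and Usp16, without array 12 for Usp54, and without array 3, 7, 8, 10 or 12 for Usp10.

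The remaining activation calls were smaller or of low level. Usp42 fell by 2.84 in cytosolic mRNA of TFoxp3+ cells (from 5.77 and 6.95 to 3.41 and 3.63, adjusted p 0.00279, held under all settings). Usp47, an enzyme of base excision repair, fell by 1.61 in cytosolic mRNA of TFoxp3- cells (lost without array 3, 7 or 11) and by 1.90 in polysome-associated mRNA of TFoxp3+ cells, which held without any single array. Usp40 fell by 1.02 and 1.11 in cytosolic and polysome-associated mRNA of TFoxp3- cells and by 1.30 in polysome-associated mRNA of TFoxp3+ cells. The first was lost without array 3, 7 or 11, the second without array 4, 8 or 12, and the last held under the 21 settings that tested it. Usp50 and Uchl1, both below every array median, rose by 1.14 to 1.33 in 3 comparisons each, with values under 5 on every array. Neither was called in polysome-associated mRNA of TFoxp3- cells. The Usp50 calls held without any single array, and those of Uchl1 were lost without array 3, 7 or 11 in cytosolic mRNA of TFoxp3- cells, without array 5 in that of TFoxp3+ cells and without array 6 or 16 in polysome-associated mRNA. Otud7a fell in polysome-associated mRNA by 0.80 in TFoxp3- cells (lost without array 4, 8 or 10) and by 1.08 in TFoxp3+ cells (lost without array 2), and Otud3 fell by 1.33 in the former (lost without array 4 or 10). In cytosolic mRNA of TFoxp3+ cells Otud4 rose by 1.54 (lost without array 1, 5 or 15), and Usp29 (0.98), Usp12 (0.60) and Usp43 (0.57), all low on the arrays, also rose. Usp12 was lost without array 1, 5 or 13, Usp29 without array 1, 3 to 5, 7, 8 or 13, and Usp43 without array 1 to 13 or 15.

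**Figure D4:**
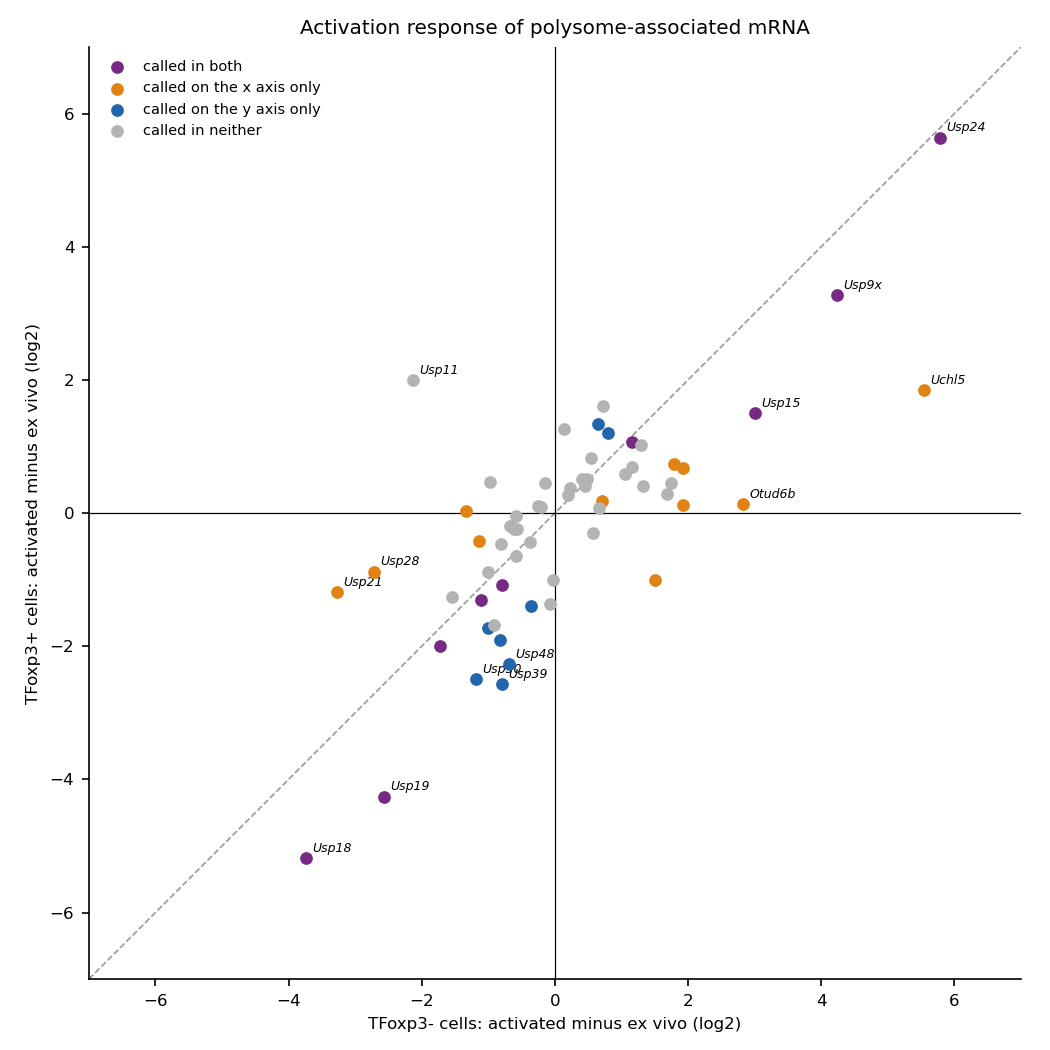
Difference between activated and ex vivo cells in polysome-associated mRNA (log2) of each of the 61 genes, TFoxp3- cells on the x axis and TFoxp3+ cells on the y axis, coloured by call, with the line of equal change dashed. Usp18 and Usp19 lie low and Usp24 and Usp9x high in both subsets, while Uchl5 lies at 5.54 on the x axis and 1.85 on the y axis.

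The difference between subsets in the response to activation was tested directly. In cytosolic mRNA 1 gene responded more (0.856% of all genes) and 1 less (1.21% of all genes) in TFoxp3+ than in TFoxp3- cells. The gene with the lower response was Bap1, the catalytic subunit of the complex that removes ubiquitin from histone H2A. Its cytosolic mRNA was at 8.67 and 8.80 in ex vivo TFoxp3- cells and rose to 9.39 and 10.13, but was at 8.58 and 8.72 in TFoxp3+ cells and fell to 6.63 and 6.85. The changes were 1.03 (SE 0.27, adjusted p 0.0171; lost without array 3, 7 or 11) and -1.91 (SE 0.27, adjusted p 0.000546), and the difference of -2.94 (SE 0.38, adjusted p 0.0054) held under all 22 settings. Bap1 was the only one of the 61 genes called in opposite directions by activation of the 2 subsets in either fraction. The gene with the higher response, Usp4 (1.91, adjusted p 0.0476), was lost without array 1 to 9, 11 or 15, and without array 15 there were 4 calls in all. In polysome-associated mRNA 0 genes passed this limma test, against 1.15% of all genes with a higher and 1.43% with a lower response; 11 of the 61 had an unadjusted p under 0.05, and there were 6 calls without array 14 and 1 or 2 without any of arrays 9 to 13 or 15. The Uchl5 difference there, -3.69, was not called.

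Ex vivo, few deubiquitinase genes were called between the subsets in the fit to all 16 arrays. In cytosolic mRNA 0 were higher (2.06% of all genes) and 1 lower (2.58% of all genes) in TFoxp3+ cells, and in polysome-associated mRNA 0 were higher (1.62%) and 2 lower (2.25%). Usp4 was at 8.14 and 8.34 in cytosolic mRNA of TFoxp3+ cells against 9.52 and 9.59 in TFoxp3- cells (-1.31, SE 0.30, adjusted p 0.0586). In polysome-associated mRNA Usp25, which acts in interleukin 17 and Toll-like receptor signalling, was at 4.37 and 6.01 against 6.77 and 7.10 (-1.75, SE 0.50, adjusted p 0.144), and Usp33, linked to receptor recycling, at 3.02 and 3.39 against 4.67 and 4.83 (-1.54, SE 0.40, adjusted p 0.1). None of these groups overlapped, but the calls rest on few arrays. Usp4 was lost without array 1, 3, 5 or 7, Usp33 without array 2, 4, 6 or 8, and Usp25 without array 1 or 3 to 8. Without array 14 or 16, which are not in these groups but enter the shared estimate of spread, 4 genes were called in each fraction. Fitted to only the arrays compared, 2 genes were higher and 16 lower in TFoxp3+ cells in cytosolic mRNA (15.2% and 16.3% of all genes) and 1 higher and 15 lower in polysome-associated mRNA (8.93% and 11.9%), and with array weights 3 were higher and 12 lower in each (17.6% and 14.7% of all genes in cytosolic, 12.4% and 12.5% in polysome-associated mRNA). The actin ratio named above separates the same groups, and its part in these differences was not tested.

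After activation the subsets differed most in polysome-associated mRNA. There 21 of the 61 genes were lower in TFoxp3+ cells, 34.4% against 13.7% of all genes, and 6 were higher, 9.84% against 18.7% of all genes. The median difference of the 61 genes was -0.56, against 0.20 over all genes. In cytosolic mRNA of the same cells 10 were lower (16.4% against 12.2% of all genes) and 7 higher (11.5% against 13.8%), and the median was -0.03 against 0.13. Leaving out any 1 array gave between 14 and 24 genes lower in polysome-associated mRNA, but only 6 calls remained in cytosolic mRNA without array 9 and 11 without array 3, 4, 7 or 8. The polysome split was 2 higher and 25 lower with each array centred on its median and 2 and 22 after cyclic loess, settings that brought the median of all genes from 0.20 to 0.08 and 0.03. The shares of all genes called under these settings are not given here, so these counts alone do not measure an excess over all genes. Among genes whose mean was above the median of all means, 14 of 37 deubiquitinase genes were lower, against 21.8% of all such genes. The number of calls fell when the spread was estimated otherwise: fitted to only the 4 arrays compared, 6 were lower (3.84% of all genes) and 1 higher, and with array weights 8 were lower (6.9% of all genes) and 1 higher. The shares of all genes that were higher in these fits are not given here. These subset comparisons share their TFoxp3- or TFoxp3+ arrays with the activation comparisons above, so the values of a gene in both are not independent.

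Of the genes lower in polysome-associated mRNA, Uchl5 and Otud6b had the largest differences. Uchl5 was at 6.20 and 6.35 in TFoxp3+ against 10.87 and 10.94 in TFoxp3- cells (-4.63, SE 0.92, adjusted p 0.00874), and Otud6b at 4.62 and 5.55 against 8.94 and 9.15 (-3.96, SE 0.80, adjusted p 0.00959). Both groups of arrays were well apart, and both calls held under all 22 settings. In cytosolic mRNA the differences were similar in size, -3.34 (SE 0.92, adjusted p 0.0394; lost without array 15) for Uchl5 and -4.04 (SE 0.80, adjusted p 0.0104) for Otud6b, the latter under all settings.

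For most of the other genes lower in TFoxp3+ cells, the cytosolic mRNA was not called. Of the 21 genes, 6 were also lower in cytosolic mRNA (Otud1, Otud6b, Otud7b, Stambp, Uchl5 and Usp42) and 15 were not called there. Usp38 was at 3.36 and 4.90 against 6.53 and 7.09 in polysome-associated mRNA (-2.68, SE 0.51, adjusted p 0.00746), while cytosolic arrays overlapped at 3.72 and 4.07 and at 3.70 and 4.38. Usp10 was at 5.48 and 6.88 against 8.24 and 8.86 (-2.38, SE 0.49, adjusted p 0.0108), with cytosolic arrays at 7.40 and 7.91 and at 7.80 and 8.09. Usp48 was at 5.20 and 5.32 against 6.93 and 7.15 (-1.78, SE 0.29, adjusted p 0.0032), and Usp39 at 6.44 and 6.98 against 8.47 and 9.26 (-2.16, SE 0.52, adjusted p 0.0196). Usp18 was at 2.61 and 4.06 against 5.41 and 6.51 (-2.62, SE 0.52, adjusted p 0.00898) and Usp15 at 4.72 and 5.41 against 6.77 and 7.11 (-1.88, SE 0.52, adjusted p 0.034). In each of these 6 genes both TFoxp3+ arrays were below both TFoxp3- arrays, and each call held without any single array. Fitted to only the arrays compared, the calls of Usp38, Usp10 and Usp18 were lost, and with array weights that of Usp15 was lost. A missing cytosolic call does not show that a difference was confined to polysome-associated mRNA. When polysome-associated relative to cytosolic mRNA was compared between the subsets by limma (below), Usp38 was called (adjusted p 0.103). Usp10 (adjusted p 0.158), Usp48 (0.183), Usp18 (0.338), Usp15 (0.368) and Usp39 (0.445) were not.

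The calls of the other 13 lower genes were each lost when certain single arrays were left out. Cyld (-1.38, adjusted p 0.0943), at 4.85 and 5.85 against 6.60 and 6.87, was lost without array 10, 12 or 14, as was Otud1, an enzyme of K63-linked chains (-2.84, adjusted p 0.0695). Usp42 (-1.98) was lost without array 14, Otud4 (-1.45) without array 10, and Otud7b (-0.66) and Usp54 (-1.40) without array 12. Usp25 (-1.47) and Usp47 (-1.44) were lost without array 12 or 16, Usp46 (-1.54) without array 12, 14 or 16, and Usp8, an enzyme of endosomal sorting (-1.32), and Usp19 (-1.43) without array 10 or 14. Usp33 (-0.94) was lost without array 1 to 8, 10, 12, 14 or 16, and Stambp (-0.94) without array 1 to 9, 11, 12, 14 or 16. In all, 8 of the 21 lower calls held whichever single array was left out.

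Usp11, an X-linked enzyme of homologous recombination repair, was the exception with a large difference the other way. It was at 6.84 and 9.14 in polysome-associated mRNA of activated TFoxp3+ cells against 3.58 and 4.26 in TFoxp3- cells, and at 5.34 and 5.49 against 3.86 and 6.18 in cytosolic mRNA. The polysome arrays did not overlap and the cytosolic arrays did. The polysome difference was 4.07 (SE 0.75, adjusted p 0.00607), a call that held under all 22 settings. Its TFoxp3- polysome arrays lay below every array median and the TFoxp3+ ones were far apart, so this size is less certain than the direction. The other higher genes were Usp21 (1.61), Usp27x (1.29), Otud3 (0.89), Usp28 (0.81, with overlapping arrays) and Usp50 (0.70). Otud3 was lost without array 10, 12 or 14, Usp50 without array 10 or 14, Usp27x without array 3, 7, 10, 12 or 16, Usp21 without array 1 to 8, 10 or 14 and Usp28 without array 1 to 8, 10 or 16. On arrays centred on their median 4 of these 5 calls, all but that of Usp50, were lost.

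In cytosolic mRNA Bap1 had the smallest p of the 61 genes, at 6.63 and 6.85 in TFoxp3+ against 9.39 and 10.13 in TFoxp3- cells (-3.02, SE 0.27, adjusted p 0.00025), under all settings. Usp24 was higher, at 9.87 and 10.50 against 6.29 and 7.40 (3.34, SE 0.86, adjusted p 0.0311; lost without array 9). Usp42 was lower by 2.07 (adjusted p 0.0326) and Otud7a higher by 1.04 (adjusted p 0.0237), and both held without any single array. Otud1 (-3.28) and Usp30 (-1.97) were lower and Usp13 was higher (1.26), each lost without array 9 or 15. Otud5 (-1.83), Stambp (-1.05), Usp28 (-1.01), Otud7b (-0.50), Usp16 (1.37), Usp26 (1.11), Usp29 (0.81) and Usp32 (0.57) were also called. Usp26 was lost without array 13, Usp28 without array 9, 11 or 15, Usp16 without array 1, 3 to 5, 7 to 9 or 13, Usp29 without array 1, 3 to 5, 7 to 9, 11 or 13, Usp32 without array 2 to 4, 6 to 9, 11, 13 or 15, and the other 3 each without array 1 to 9, 11 or 13.

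**Figure D5:**
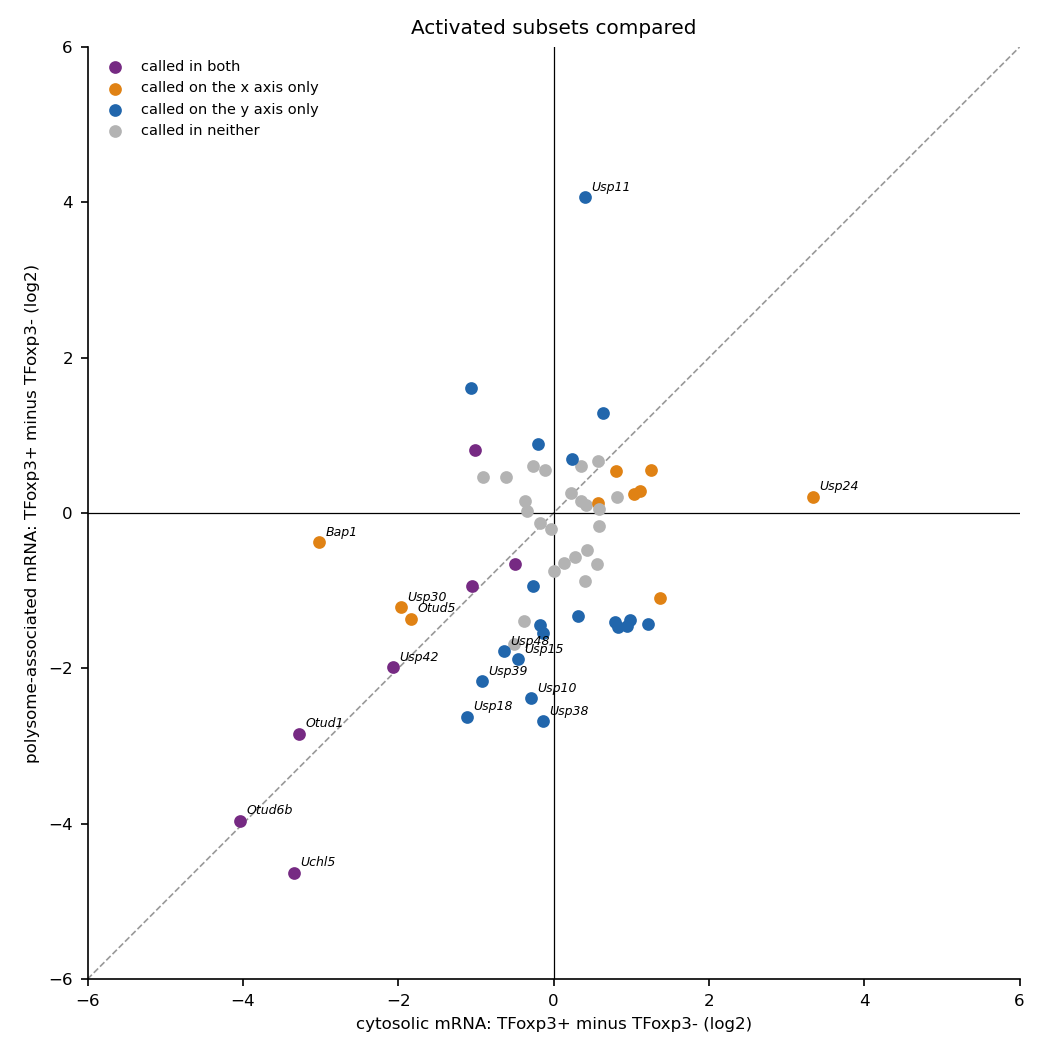
Difference between activated TFoxp3+ and TFoxp3- cells (log2) of each of the 61 genes, cytosolic mRNA on the x axis and polysome-associated mRNA on the y axis, coloured by call, with the line of equal difference dashed. Uchl5, Otud6b and Otud1 lie low on both axes, Usp38 and Usp10 low on the y axis and near 0 on the x axis, Usp18 at -2.62 on the y axis and -1.11 on the x axis, Bap1 low on the x axis alone and Usp11 high on the y axis alone.

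Marker genes of other cells also differed between the activated polysome groups. Of 4 measured B cell markers 2 were higher in TFoxp3+ cells, with summed levels of 17.9 to 18.66 against 14.6 to 15.04. Of 7 myeloid markers 2 were higher (summed levels 32.38 to 35.59 against 28.53 to 31.16), and of 6 stromal and endothelial markers 3 were higher (26.24 to 30.75 against 23.88 to 25.39). Over all genes 18.7% were higher in this comparison. Summed levels of the natural killer markers were 12.03 to 12.53 against 11.08 to 11.35. Means of the myeloid marker Fcer1g (4.52 against 5.79) and the stromal marker Col1a2 (4.29 against 4.31) went the other way. In these groups at most 2 markers of any of these lists had a group mean above the array medians. Their part in the deubiquitinase differences was not tested.

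Polysome-associated and cytosolic mRNA of the same cells were compared next. Ex vivo, 0 of the 61 genes differed between fractions in either subset by limma, where 0.0303% of all genes were higher and 0.0303% lower in TFoxp3- cells, and 0.0303% higher and 0.00607% lower in TFoxp3+ cells; 2 and 4 of the 61 had an unadjusted p under 0.05. After activation 6 genes were higher (9.84% against 2.36% of all genes) and 2 lower (3.28% against 1.52%) in the polysome-associated mRNA of TFoxp3- cells. In TFoxp3+ cells 2 were higher (3.28% against 2.31%) and 1 lower (1.64% against 2.36%).

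In TFoxp3- cells the genes with higher polysome-associated mRNA were Usp9x (3.46, SE 0.50, adjusted p 0.00594), Usp38 (2.77, SE 0.51, adjusted p 0.0165), Usp15 (2.64), Usp16 (2.41), Usp54 (2.27) and Usp48 (1.70, SE 0.29, adjusted p 0.0114). Their arrays did not overlap between fractions: Usp9x was at 6.90 and 7.34 against 3.64 and 3.67 in the cytosol, and Usp48 at 6.93 and 7.15 against 4.94 and 5.74. Mean cytosolic levels of Usp9x, Usp38, Usp15 and Usp54 in these cells lay below every array median, so the sizes of their differences are less certain. The Usp9x and Usp48 calls held without any single array. That of Usp38 was lost without array 9 or 10, that of Usp15 without array 9, 10 or 12, that of Usp16 without array 1, 3 to 5, 7 to 10 or 12, and that of Usp54 without array 9 or 12. Bap1 (-1.39) and Usp28 (-1.42) were lower, the first lost without array 10 or 11 and the second without array 1 to 11, and without array 10 only 3 genes were called in all (4 without array 9). In TFoxp3+ cells Usp19 was lower, at 4.71 and 5.09 against 6.54 and 8.54 (-2.64, SE 0.52, adjusted p 0.0184), a call that held without any single array. Usp9x (2.18, lost without array 1 to 8, 14 or 15) and Bap1 (1.27, lost without array 13 or 16) were higher. Without array 14 there were 8 calls in TFoxp3+ cells, and 5 without array 15.

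The difference between subsets in polysome-associated relative to cytosolic mRNA, here called the translation comparison, was tested last. It is a plain difference of differences and also moves when cytosolic mRNA alone differs, so a call does not by itself show altered translation. Ex vivo no gene at all passed the threshold of 0.3 in this limma test (0% of all genes higher and 0% lower), and 0 of the 61 had an unadjusted p under 0.05. After activation, at a threshold of 0.15, 7 genes were relatively lower in TFoxp3+ cells (11.5% against 3.65% of all genes) and 3 higher (4.92% against 3.83%), and the median of the 61 was -0.61 against 0.06 over all genes. The lower genes were Usp19 (-2.65), Usp38 (-2.53), Usp16 (-2.47), Otud4 (-2.39), Cyld (-2.37), Usp25 (-2.29) and Usp54 (-2.20), with SE of 0.63 to 0.75 and adjusted p of 0.0782 to 0.131. The higher genes were Usp11 (3.67, SE 1.05, adjusted p 0.103), Bap1 (2.66, SE 0.38, adjusted p 0.0125) and Usp28 (1.82, SE 0.48, adjusted p 0.0774).

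Bap1 and Usp28 were the 2 translation calls that held without any single array. Cytosolic Bap1 mRNA differed by -3.02 between the subsets while its polysome-associated mRNA, at 7.93 and 8.08 against 8.12 and 8.62, was not called. Cyld was at 4.09 and 5.66 in cytosolic and 6.60 and 6.87 in polysome-associated mRNA of TFoxp3- cells but at 5.42 and 6.31 and at 4.85 and 5.85 in TFoxp3+ cells, and its call was lost without array 1 to 10 or 12 to 14. Otud4 was lost without array 9, Usp19 without array 9 or 10, Usp38 without array 4, 8, 9, 10, 13 or 14, Usp11 without array 1, 3 to 5, 7 to 9, 12 or 16, Usp16 without array 1, 3 to 5, 7 to 10, 13 or 16, Usp25 without array 1, 3 to 5, 7, 8, 11, 12, 15 or 16, and Usp54 without array 2 to 4, 6 to 9, 12 or 13. Without array 4 or 8 only 4 genes were called, 5 without array 3, 7 or 9, and 17 without array 15. Fitted to only the arrays compared, 0 of the 61 genes were called in this comparison or in either activated fraction comparison.

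Grouped by role, no list moved as one. Beside the counts that follow, 13.7% of all genes were lower and 18.7% higher. After activation, 5 of the 10 NF-κB and lymphocyte signalling genes (Cyld, Otud7b, Usp15, Usp18 and Usp25) were lower in polysome-associated mRNA of TFoxp3+ cells and 0 higher. Of 6 measured endosome and membrane traffic genes 3 were lower there (Stambp, Usp8 and Usp33). Of 3 measured Foxp3-linked genes 1 was higher (Usp21) and 0 lower, with Usp7 at 5.65 and 9.01 against 8.04 and 9.41 and Usp22 at 6.96 and 7.18 against 5.87 and 7.84, so that the arrays of both overlapped; Usp44 was not analysed here. Of 6 measured DNA repair genes 2 were higher (Usp11 and Usp28) and 2 lower (Usp47 and Usp48), while Usp1 ranged from 4.15 to 8.75 between the replicate arrays of TFoxp3+ cells. Of 7 measured histone genes Usp27x alone was higher, and Bap1, Usp3, Usp16, Usp22, Usp36 and Usp49 were not called. The single measured mitochondrial gene, Usp30, was not called, and of the WDR48-bound enzymes Usp1, Usp12 and Usp46 only Usp46 was lower. Of 3 genes linked to the spliceosome 2 were lower (Usp39 and Usp15) and Usp4 was not called. Of 5 genes linked to p53 or MDM2, Usp10 alone was lower, and Usp2, Usp7, Usp24 and Otud5 were not called.

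The study named 10 deubiquitinases from these same arrays (Usp10, Usp11, Usp18, Usp33, Usp38, Usp39, Usp46, Usp48, Usp54 and Uchl5). It classed them as differentially translated, after a correction for cytosolic mRNA by its own method, which was not run here. Polysome-associated mRNA alone is another measure, and the unpaired translation comparison is another method. 9 of the 10 were lower and 1 higher (Usp11) in polysome-associated mRNA of activated TFoxp3+ cells. In the translation comparison, relative to cytosolic mRNA, 2 of the 10 were lower (Usp38 and Usp54) and 1 higher (Usp11). Since they were chosen on these samples, these counts are not independent evidence. 12 of the 21 genes lower in polysome-associated mRNA are not among them, Otud6b and Usp15 included.

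Genes that work with the deubiquitinases came from lists of other deubiquitinase families and of binding partners. Of 16 measured genes of other families 4 were lower and 2 higher in polysome-associated mRNA of activated TFoxp3+ cells, and of 16 partners 3 were lower and 1 higher, where 13.7% of all genes were lower and 18.7% higher. Psmd14, the metalloprotease that is the third deubiquitinase of the proteasome, was also lower. It was at 7.70 and 8.32 in TFoxp3+ against 11.21 and 11.56 in TFoxp3- cells (-3.37, SE 0.41, adjusted p 0.000768), having risen in the latter from 7.72 and 8.14 with activation (3.45, SE 0.41, adjusted p 0.000108). The difference between the subsets in that rise was called for Psmd14 (-3.15, SE 0.58, adjusted p 0.0191). Among partners, Spata2, which binds Cyld to the linear ubiquitin ligase, was higher (2.01, adjusted p 0.0069) and rose with activation of TFoxp3+ cells in polysome-associated mRNA by 3.47 (SE 0.38, adjusted p 0.000113). Rbck1, Sharpin and Rnf31 encode that ligase. In polysome-associated mRNA of TFoxp3- cells they fell with activation by 2.74, 1.64 and 2.77, and in that of TFoxp3+ cells Rbck1 fell by 1.49 and Sharpin by 2.51, while Rnf31 was not called. Tnip1, a partner of A20, fell in all 4 activation comparisons, by 1.45 to 2.41. Uba6, a ubiquitin-activating enzyme and the single measured gene of the list of ubiquitin genes and E1 enzymes, was at 6.87 and 7.85 in polysome-associated against 3.38 and 3.40 in cytosolic mRNA of activated TFoxp3- cells, and at 3.58 and 4.13 against 3.96 and 4.27 in TFoxp3+ cells. The difference of these differences was -4.23 (SE 0.56, adjusted p 0.00925). All of these Uba6 values but those of TFoxp3- polysome-associated mRNA lay below every array median, so this size is less certain.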

How the data were processed

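RNA of each sample was amplified and hybridised to Affymetrix arrays by the authors, who deposited log2 intensities after robust multi-array average (RMA) normalization on probe sets redefined for Entrez genes. No source read here says whether the 16 arrays were normalized together. After 64 control probe sets were dropped from 16539 features, 16475 genes remained, 695 of them without a symbol in the platform annotation. No detection calls are given, and the number of arrays limits the precision. Since no label links a cytosolic array to the polysome array of the same cells, the study's analysis of translation on paired arrays was not run. Here limma 3.58.1 (R 4.3.3) was fitted to all 16 arrays with 1 mean per group (8 residual degrees of freedom) and tested 16 contrasts, two-sided, with Benjamini-Hochberg adjustment over all genes. Thresholds were 0.15 for subset contrasts and for translation after activation, 0.3 for translation ex vivo and 0.05 otherwise. Duplicates are separate samples by their labels. The p-values rest on 1 spread per gene, estimated over the duplicates of all groups and not only of those compared. Duplicates lay closer together ex vivo than after activation, and this shared spread does not allow for that. It can therefore be too small for activated groups and too large for ex vivo groups. In each comparison the called genes with the largest differences, up to 10 in each direction, and the members of role lists were named. The genes, lists and tests were chosen with earlier results of these data known. Alternatives were a fit to only the arrays compared, array weights, an intensity trend, a filter on low genes, median centring, cyclic loess and leaving out each array. The fit was tested on simulated data with the same spread in every group, which does not cover the unequal spread of these arrays. Upstream sequences were read from RefSeq on GRCm38.p6. Plots were drawn with Python 3.11.15 and matplotlib 3.10.9.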

Additional observations from a re-analysis of the deposited data

Results flagged for a closer look

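These results were singled out because a test found that the same contrast differed between the subsets. In cytosolic mRNA the change with activation differed between TFoxp3+ and TFoxp3- cells for Bap1 (-2.94, adjusted p 0.0054) and Usp4 (1.91, adjusted p 0.0476, limma). In activated cells the difference between polysome-associated and cytosolic mRNA was greater in TFoxp3+ cells for Bap1 (2.66), Usp11 (3.67) and Usp28 (1.82). It was smaller in TFoxp3+ cells for Cyld (-2.37), Otud4 (-2.39), Usp16 (-2.47), Usp19 (-2.65), Usp25 (-2.29), Usp38 (-2.53) and Usp54 (-2.20). The Bap1 values and that of Usp28 passed the threshold whichever single array was left out, and the other 9 did not. Fitted to only the arrays compared, the translation calls of Bap1 and Usp28 were lost, as was that of Usp28 with array weights. Subset and array series cannot be told apart in activated cells.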

How the results depend on the processing

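Over 22 alternative settings the 138 calls of single genes gave 2994 values, of which 0 changed direction, 2415 stayed past the threshold and 579 did not. 33 calls were kept under every setting that tested the gene, and 49 whichever single array was left out. Counts of called deubiquitinase genes moved with how the spread was estimated and with single arrays. The counts below are given without the share of all genes called under the same setting. They therefore do not show whether the members moved apart from all genes. Fitted to only the arrays compared, the counts became 18 and 16 in the subset comparisons of cytosolic and polysome-associated mRNA ex vivo (from 1 and 2), 4 and 7 in those after activation (from 17 and 27), 11 and 6 in the activation of TFoxp3+ cells in cytosolic and polysome-associated mRNA (from 18 and 17), 1 in the difference of activation between subsets in cytosolic mRNA (from 2), and 0 in both activated fraction comparisons and in the activated translation comparison. With array weights they were 15 and 15 in the subset comparisons ex vivo, 6 and 9 in those after activation, 31 in the activation of TFoxp3- cells in polysome-associated mRNA (from 20), 1 and 1 in the differences of activation between subsets (from 2 and 0), 2 in the fraction comparisons of TFoxp3- cells ex vivo and after activation (from 0 and 8), 0 in that of activated TFoxp3+ cells (from 3) and 1 in the activated translation comparison (from 10). Cyclic loess gave 2 and 1 in the subset comparisons ex vivo and 1 in the difference of activation between subsets in polysome-associated mRNA. Median centring gave 1 and an intensity trend gave 1 in that difference in cytosolic mRNA, and the trend gave 1 in the subset comparison of polysome-associated mRNA ex vivo. The filter on low genes gave 1 there, 1 in the difference of activation in polysome-associated mRNA, 11 in the activation of TFoxp3+ cells in polysome-associated mRNA and 4 in the fraction comparison of activated TFoxp3- cells, with 37 of the 61 genes tested. The split of higher and lower calls was 4 and 11 after centring, against 7 and 10, in the subset comparison of cytosolic mRNA after activation, and 6 and 11 against 9 and 9 in the activation of TFoxp3+ cells in cytosolic mRNA.

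Leaving out 1 array gave 0 to 4 calls in each subset comparison ex vivo, 6 to 21 and 18 to 30 in those after activation, 5 to 17 and 9 to 25 in the activation of TFoxp3- cells and 8 to 21 and 13 to 21 in that of TFoxp3+ cells, each in cytosolic and polysome-associated mRNA. It gave 1 to 4 and 0 to 6 in the differences of activation between subsets, 3 to 10 and 2 to 8 in the activated fraction comparisons of TFoxp3- and TFoxp3+ cells, 4 to 17 in the activated translation comparison, and 0 in the 3 ex vivo fraction and translation comparisons. A group with 1 array left was assumed to vary like the others. No paired analysis was possible because the labels number the arrays from 1 to 16 and no groups share a number. The causes of these changes were not tested, and with 2 arrays a group and wide replicate gaps after activation a gene that was not called may still differ.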
